A study of Mus musculus with 21 samples.

Results

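MRISC, the Map3k2-regulated intestinal stromal cells of the mouse colon, held 82513 open regions on chromosomes 1 to 19 and X that were called in no other sorted stromal population of the study. The 10000 of them with the highest deposited score are described here, called members below, out of 716552 peaks in the total lists of the 4 populations. Open regions were measured by ATAC-seq, in which a transposase cuts accessible DNA. The MRISC libraries (n = 2) came from colons of male C57BL/6 mice of 12 weeks, with no genotype or treatment in the labels, as did those of the other populations, CD34 SP, CD138 and Myofibroblast (2 libraries each). All were sorted as gp38-positive cells without CD45, Epcam or CD31, with further antibodies per subset that the sources used here do not name. Transcripts came from 1 single-cell library of gp38+CD90+ colon cells of a wild type C57BL/6 female of 12 weeks on day 3 of 2% dextran sulfate sodium (DSS), an agent that injures the colon epithelium. Sex and treatment therefore differ between the regions and the transcripts. The 12 bulk colon RNA samples were not analysed here.

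Open regions away from promoters are often enhancers, short stretches where transcription factors bind and from which the transcription of a gene nearby or far off can be raised. Sets of enhancers open in 1 cell type and closed in its relatives tend to lie near the genes that give that cell type its character, frequently the genes of its own transcription factors. Stromal cells around colon crypts supply the epithelium with R-spondins, Wnt ligands and antagonists of bone morphogenetic proteins (BMPs), and so set the place where stem cells persist. EBF factors act in mesenchymal progenitors as well as in B cells, AP-1 dimers of Fos and Jun proteins open enhancers in many stromal cells, and the glucocorticoid receptor binds DNA as a dimer to a palindrome.

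The 4 windows that follow show what strong members look like in sequence. They were chosen after the values were seen, are the central 200 bp on the + strand of the GRCm38 (mm10) assembly from RefSeq, and carry in capitals any AP-1 word (TGANTCA), EBF word (TCCC and GGGA 2 bases apart) or word of the glucocorticoid receptor family (NR3C, GNACA and TGTNC 3 bases apart). The Irf2 window, at chr8:46811420-46811619, is from the member with the highest score of all, and holds 1 AP-1 word. The Cdkn2b window, at chr4:89422076-89422275, is from the highest scored member with the NR3C word among those outside exons, at rank 8. The Fam98a window, at chr17:75522771-75522970, is from the highest scored such member with the EBF word, at rank 12. The Ebf1 window, at chr11:44620837-44621036, is from the highest scored member at Ebf1, the gene with the most members, and holds none of the 3 words.
Irf2 window: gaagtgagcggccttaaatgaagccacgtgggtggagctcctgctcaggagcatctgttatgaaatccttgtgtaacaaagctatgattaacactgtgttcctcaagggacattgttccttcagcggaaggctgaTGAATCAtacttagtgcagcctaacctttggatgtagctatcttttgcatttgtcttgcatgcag
Cdkn2b window: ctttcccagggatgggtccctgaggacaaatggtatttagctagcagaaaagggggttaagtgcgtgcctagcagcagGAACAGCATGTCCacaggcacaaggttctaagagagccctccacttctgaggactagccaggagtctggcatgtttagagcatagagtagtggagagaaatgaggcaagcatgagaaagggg
Fam98a window: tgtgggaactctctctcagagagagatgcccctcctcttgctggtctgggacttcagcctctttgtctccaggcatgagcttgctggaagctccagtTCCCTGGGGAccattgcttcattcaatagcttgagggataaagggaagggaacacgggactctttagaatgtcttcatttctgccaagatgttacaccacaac
Ebf1 window: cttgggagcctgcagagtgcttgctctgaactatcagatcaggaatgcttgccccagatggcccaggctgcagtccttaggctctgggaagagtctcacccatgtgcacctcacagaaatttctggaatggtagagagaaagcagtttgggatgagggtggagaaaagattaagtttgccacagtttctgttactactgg

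A further 7 shorter members, printed whole, show a word in its whole region, and lie near genes with many members or a high transcript level. They are the highest scored members of at most 300 bp near the named genes that lie outside exons. The Flrt2 EBF region spans chr12:96614537-96614833, far downstream of its gene. The Bnc2 NR3C region spans chr4:84263142-84263384, the Mn1 NR3C region chr5:111560527-111560813 and the Lpp NR3C region chr16:24433118-24433358, in an intron of Lpp. The Klhl29 AP-1 region spans chr12:5859930-5860201, the Bnc2 AP-1 region chr4:84548030-84548319, in an intron 1885 bp from a start of Bnc2, and the Flrt2 AP-1 region chr12:95381479-95381751. All are on the + strand of the same RefSeq assembly, with the word in capitals. Of these genes, Bnc2 had 13 members, against 9 CD34 SP, 6 CD138 and 2 Myofibroblast peaks, Klhl29 10 members, against 3, 7 and 7 in the same order, and Lpp 6 members, against 9, 10 and 5, so that Lpp had no excess.
Flrt2 EBF region: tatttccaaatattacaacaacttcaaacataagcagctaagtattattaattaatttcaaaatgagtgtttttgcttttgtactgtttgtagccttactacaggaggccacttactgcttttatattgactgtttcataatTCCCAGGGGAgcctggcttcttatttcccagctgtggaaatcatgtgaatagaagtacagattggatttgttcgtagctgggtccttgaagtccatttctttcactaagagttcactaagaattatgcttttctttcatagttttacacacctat
Bnc2 NR3C region: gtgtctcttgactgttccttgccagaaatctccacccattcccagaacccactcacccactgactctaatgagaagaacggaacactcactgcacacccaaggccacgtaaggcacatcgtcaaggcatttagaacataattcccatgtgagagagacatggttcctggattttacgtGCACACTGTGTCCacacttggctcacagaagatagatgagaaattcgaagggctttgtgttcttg
Mn1 NR3C region: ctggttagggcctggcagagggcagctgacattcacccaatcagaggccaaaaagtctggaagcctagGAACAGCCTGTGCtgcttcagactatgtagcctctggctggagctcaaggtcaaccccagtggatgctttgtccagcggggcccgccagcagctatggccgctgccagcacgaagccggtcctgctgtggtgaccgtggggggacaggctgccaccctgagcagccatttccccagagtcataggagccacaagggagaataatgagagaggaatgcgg
Lpp NR3C region: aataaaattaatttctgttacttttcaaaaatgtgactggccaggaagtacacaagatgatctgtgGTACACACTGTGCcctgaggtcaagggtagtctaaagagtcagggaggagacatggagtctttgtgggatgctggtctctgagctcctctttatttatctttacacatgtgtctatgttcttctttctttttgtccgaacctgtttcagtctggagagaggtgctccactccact
Klhl29 AP-1 region: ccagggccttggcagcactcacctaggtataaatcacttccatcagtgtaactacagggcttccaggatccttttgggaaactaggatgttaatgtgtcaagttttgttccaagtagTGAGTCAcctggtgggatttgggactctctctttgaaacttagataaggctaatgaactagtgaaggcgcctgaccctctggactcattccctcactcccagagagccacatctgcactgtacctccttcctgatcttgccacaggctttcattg
Bnc2 AP-1 region: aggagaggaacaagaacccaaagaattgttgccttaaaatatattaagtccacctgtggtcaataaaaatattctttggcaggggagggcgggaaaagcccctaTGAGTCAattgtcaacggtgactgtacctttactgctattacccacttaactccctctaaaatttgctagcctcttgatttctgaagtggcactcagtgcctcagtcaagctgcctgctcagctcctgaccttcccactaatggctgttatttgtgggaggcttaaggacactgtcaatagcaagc
Flrt2 AP-1 region: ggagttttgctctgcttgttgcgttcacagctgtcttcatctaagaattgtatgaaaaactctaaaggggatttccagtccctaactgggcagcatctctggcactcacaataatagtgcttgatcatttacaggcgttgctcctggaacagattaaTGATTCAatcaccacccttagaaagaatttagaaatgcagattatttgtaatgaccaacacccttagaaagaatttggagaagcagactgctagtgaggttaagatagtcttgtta

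The members were chosen by their score and by the absence of an overlapping peak in the other lists, so both are descriptions. Scores of members lay between 0.0503 and 0.478 with a median of 0.0577. Just inside the limit the last member but one had 0.050335 and the last 0.050333, and the first peak outside had 0.050332. The sources used here do not give what the score measures, which caller made the peaks, or how both libraries of a population were joined. Members were strong only among specific peaks. Set among all 177133 MRISC peaks, the member at rank 1 stood at percentile 95.1, that at rank 100 at 86.1 and the last at 55.7. Members were 290 bp wide in the median (quartiles 244 and 371 bp) and covered 3.30 Mb. Score and width moved together (Spearman 0.665 over 10000 members and 0.931 over all MRISC specific peaks, as descriptions). Members, chosen by score, were therefore also among the wider specific peaks. Each population has 1 list for 2 libraries, so no spread between libraries can be given and no test of a difference was possible. The highest 10000 specific peaks of CD34 SP, CD138 and Myofibroblast, chosen in the same way, are set beside the members as lists of equal length. A region without a called peak may still have had signal below the caller's limit.

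The 10 highest scored members lay near 10 different genes and mostly away from starts. Their nearest genes were Irf2, an interferon regulatory factor, Flrt3, Lmo2, Slc30a5, Car5a, Prkg2, Syde2, Cdkn2b, a cyclin-dependent kinase inhibitor, Slc39a11 and Tll1. Distances ran between 1530 bp at Tll1 and 300772 bp at Flrt3. In the single-cell library some of these genes were higher in the cell cluster high in Cd34 and Cd81 that is described below. Lmo2, an adaptor of transcription factor complexes, had 31.0 UMI counts scaled to a fixed total (CPM) in that cluster, against 2.66 CPM in the other stromal clusters. Flrt3, a membrane protein of adhesion and guidance, had 21.3 CPM there, against 0.850 CPM in the other stromal clusters. Prkg2 was low, with 2.08 CPM in that cluster and 0.0163 CPM in the others. Irf2, beside the top member, had 55.2 CPM in the cluster and 73.2 CPM in the other stromal clusters. Syde2 (2.94 and 0.882 CPM) and Tll1 (0.489 and 0.0817 CPM) were low as well, and higher in the cluster. Slc30a5 (17.4 and 21.7 CPM), Cdkn2b (3.55 and 2.45 CPM) and Slc39a11 (10.2 and 8.87 CPM) differed by under 2-fold, as did Irf2. Car5a had no UMI in the cluster and 0.261 CPM in the others. Prkg2, Syde2 and Tll1 lay under the limit of 20 CPM in either group that is used below. Of all genes at that limit 4.56% were at least 2-fold higher in the cluster.

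Members were mostly distal. The median distance from a member's centre to the nearest protein-coding start was 28437.5 bp, against 19751.5 bp in the CD34 SP list, 28980.5 bp in the CD138 list and 35813 bp in the Myofibroblast list. Members within 1 kb of a start, here called promoter members, numbered 483 (4.83%, 95% exact binomial interval 4.42 to 5.27), against 5.68% in the CD34 SP list, 4.82% in the CD138 list and 2.89% in the Myofibroblast list. Such intervals cover counting error only, and peaks are not replicates of a population. Of members, 22.9% lay between 1 and 10 kb from a start, 5001 of the 10000 between 10 and 100 kb and 22.3% farther. Introns held 47.2% of members, intergenic sequence 42.6% and exons 5.38%. Downstream of the nearest start lay 58.8% of members. The order of MRISC and CD138 in distance depended on the length of the lists, with 30964 bp for MRISC and 24309.5 bp for CD138 at 5000 peaks, and 27616 bp for MRISC and 33881.5 bp for CD138 at 20000, while at each of these lengths MRISC lay above CD34 SP and below Myofibroblast. MRISC peaks shared with another population were another kind of region, with a median distance of 15215 bp and 18.4% at promoters. The next 10000 specific peaks by score had a median of 26914.5 bp and 4.36% at promoters. The strongest members were the most distal, since the 2000 with the highest scores had a median distance of 36681.5 bp and the 2000 with the lowest scores 25428.5 bp.

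Many members flanked chromatin that was open elsewhere. Within 1 kb of a member's edge lay an MRISC peak shared with another population for 22.8% of members. The same share, taken against each population's own shared peaks, was 38.6% in the CD34 SP list, 11.8% in the CD138 list and 7.18% in the Myofibroblast list. A CD34 SP peak lay within 1 kb of 28.3% of members, a CD138 peak within 1 kb of 28.3% and a Myofibroblast peak within 1 kb of 24.3%. No member overlapped a peak of another population, as the specific list implies.

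**Figure D1:**
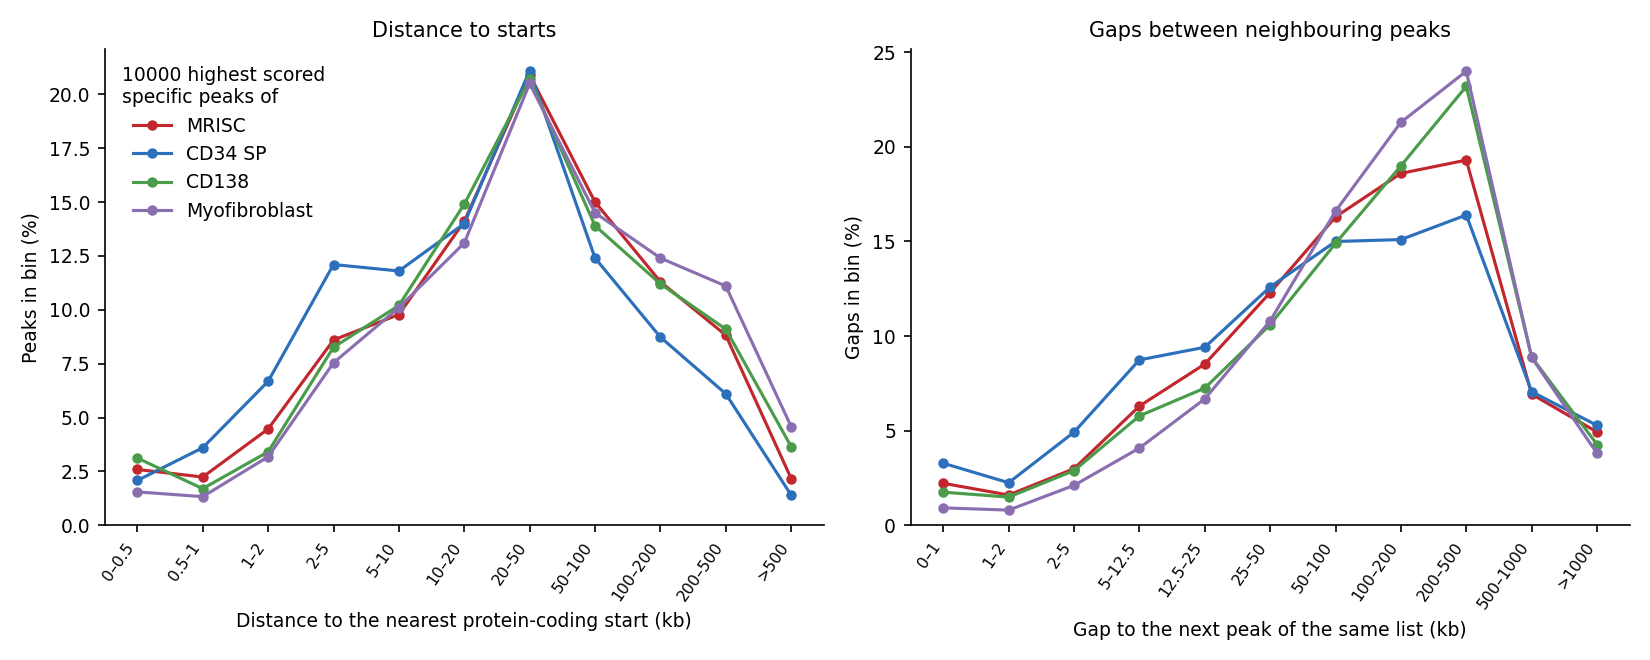
Left, share of peaks (%) by distance to the nearest protein-coding start (kb, unequal bins); right, share of gaps (%) by the gap between neighbouring peaks of one list (kb, unequal bins), for the 10000 highest scored specific peaks of MRISC, CD34 SP, CD138 and Myofibroblast. In the MRISC list 20.9% of peaks lay 20 to 50 kb from a start, and its short gaps were more frequent than those of CD138 and Myofibroblast and less frequent than those of CD34 SP.

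Along the genome the members were clumped to a degree between the other lists. The median gap between neighbouring members was 98661.5 bp, against 76941.5 bp in the CD34 SP list, 124142.5 bp in the CD138 list and 131033 bp in the Myofibroblast list. Joining members across gaps of about 13 kb or less gave 1071 clusters with 2380 members (23.8%), against 32.0% of peaks in clusters in the CD34 SP list, 21.1% in the CD138 list and 14.9% in the Myofibroblast list. Clusters were small: 889 were pairs, 140 had 3 members, 33 had 4, 4 had 5 and 5 had 6. Clusters of 4 or more numbered 42 for MRISC, against 144 in the CD34 SP list, 53 in the CD138 list and 11 in the Myofibroblast list. The largest cluster of CD34 SP held 16 peaks. With equal lists of 5000 peaks the order of MRISC and CD138 turned, at 17.0% for MRISC and 18% for CD138.

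The 5 clusters of 6 members lay at named places. One spanned 20.8 kb over Hoxb2 and Hoxb3 (chr11:96332256-96353053), genes of homeodomain factors of body position, and took in a promoter, introns and an exon. Hoxb2 alone had 4 members within 1.35 kb of its starts, against 0 CD34 SP, 0 CD138 and 0 Myofibroblast peaks. Another lay over Galnt16 (31.3 kb), which encodes an enzyme that adds sugars to proteins, and another over Col5a1 (41.3 kb), which encodes a chain of type V collagen. The remaining ones lay at Hhatl, Klhl40 and Zfp651 (27.4 kb) and at Auh and Nfil3 (19 kb). Clusters of 5 lay at Npepl1, Tpst2, Pecam1 and Ccnl1. Pecam1 encodes CD31, a marker of endothelium that the sort excluded, and it had 0.734 CPM in the Cd34 and Cd81 high cells and 1.49 CPM in the other stromal clusters. The Hoxb2 and Galnt16 clusters thus lay at genes with transcripts that were higher in those cells (Hoxb2 28.6 against 1.29 CPM, Galnt16 16.1 against 0.523 CPM), while Col5a1 had 194 CPM there and 189 CPM in the other stromal clusters.

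At a coarser scale, 23.1% of 2645 windows of 1 Mb held no member, against 26% in the CD34 SP list, 15.4% in the CD138 list and 14.6% in the Myofibroblast list. The variance of the count per window over its mean was 3.93, against 4.49 in the CD34 SP list, 2.77 in the CD138 list and 2.51 in the Myofibroblast list. The window with the most members, 30, lay on chromosome 5 around Mn1, and the next, with 29, on chromosome 11, where 22 members had Ebf1 as nearest gene. Autosomes held between 3.11 members per Mb (chromosome 3) and 5.92 (chromosome 11), while X held 0.889. On X lay 152 members (1.52%), against 300 peaks (3.00%) in the CD34 SP list, 88 in the CD138 list and 53 in the Myofibroblast list.

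By the nearest start the members fell to 5556 of 21660 protein-coding genes. Of these, 3422 had 1 member, 304 had 5 or more and 25 had 10 or more. Genes surrounded by much sequence receive more peaks, so the length of genome nearest to a gene's starts, its territory, is given where it bears on a count. The median territory was 35.5 kb for genes with no member, 476 kb for genes with 5 or more and 862 kb for genes with 10 or more. The counts of the other lists, which share these territories, are therefore given beside each gene.

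Ebf1, which encodes a factor of early B cells and of mesenchyme, had the most members. It was nearest to 28 members, against 2 CD34 SP, 6 CD138 and 2 Myofibroblast peaks. Of the 28 members, 27 lay downstream of the nearest Ebf1 start and 21 in introns, spread over 607 kb on chromosome 11, and none lay at a promoter. With the starts of all annotated genes in place of protein-coding ones, 12 members were nearest to Ebf1. Their scores lay between 0.0513 and 0.0952 and the median rank was 4999, so the gene stood out by number and not by strength. In the cells high in Cd34 and Cd81 the level of Ebf1 was 536 CPM (exact Poisson interval 520 to 552), against 5.82 CPM (5.23 to 6.45) in the other stromal clusters. No other stromal cluster passed 9.63 CPM. Ebf1 was also among the leading genes of that cluster, so this level is a description of it. Related genes had fewer members. Ebf2 had 4, against 0 CD34 SP, 1 CD138 and 1 Myofibroblast peaks, with 31.4 CPM in the Cd34 and Cd81 high cells and 0.310 CPM in the other stromal clusters. Ebf3 had 2, against 1 CD34 SP, 3 CD138 and 0 Myofibroblast peaks, so CD138 had more. Its level was 11.1 CPM in those cells and 0.147 CPM in the others.

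Several more transcription factor genes followed. Meis2, which encodes a homeodomain factor, had 13 members, against 0 CD34 SP, 0 CD138 and 1 Myofibroblast peaks. Klf4, a zinc finger factor gene, had 14 members, all intergenic and 13 of them upstream, against 5 CD34 SP, 3 CD138 and 4 Myofibroblast peaks. One of them ranked 18 among all members (score 0.272), at 343142 bp from the start. Zfhx3 had 14 members, against 4 CD34 SP, 4 CD138 and 7 Myofibroblast peaks. Mn1, the gene of a transcriptional cofactor, had 13, against 1 CD34 SP, 2 CD138 and 2 Myofibroblast peaks. These 4 genes differed in transcript level. Klf4 had 947 CPM in the Cd34 and Cd81 high cells and 402 CPM in the other stromal clusters, and Mn1 93.5 and 32.1 CPM. Meis2 had 141 CPM there and 78.5 CPM in the others, under 2-fold, and Zfhx3 had 69.0 and 65.0 CPM. The nuclear receptor gene Rora had 11 members, against 7 CD34 SP, 1 CD138 and 3 Myofibroblast peaks, and a lower level of 129 CPM there against 150 CPM.

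Some of the genes with a large excess of members encode surface proteins. The 4 that follow were picked after their levels were seen, and are no list. Flrt2, which encodes an adhesion and guidance protein, had 12 members, against 0 CD34 SP, 2 CD138 and 2 Myofibroblast peaks, in a territory of 3199 kb. Gas1, the gene of a co-receptor for hedgehog ligands, had 12, against 2 CD34 SP, 2 CD138 and 3 Myofibroblast peaks. Its level was 368 CPM in the Cd34 and Cd81 high cells and 24.2 CPM in the other stromal clusters, where the smooth-muscle-like cluster held 153 CPM. Efna5, an ephrin gene, had 11 members, against 3 CD34 SP, 2 CD138 and 3 Myofibroblast peaks. Adra1b, the gene of an adrenergic receptor, had 9, against 0 CD34 SP, 1 CD138 and 2 Myofibroblast peaks. These 4 genes had higher levels in the Cd34 and Cd81 high cells, by 12.9-fold for Flrt2, 15.2-fold for Gas1, 4.44-fold for Efna5 and 8.57-fold for Adra1b. Other genes of surface proteins did not share this, such as Nrp2, a semaphorin co-receptor gene, which had 8 members, against 4 CD34 SP, 2 CD138 and 1 Myofibroblast peaks, and 85.6 CPM in those cells with 100 CPM in the others.

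Further genes with many members showed no such difference. Banp had 9 members, against 3 CD34 SP, 0 CD138 and 0 Myofibroblast peaks, and 10.0 CPM in the Cd34 and Cd81 high cells with 11.1 CPM in the others. Nav1 had 10 members, against 5 CD34 SP, 0 CD138 and 1 Myofibroblast peaks, with 151 CPM in those cells and 160 CPM in the others. Slc30a10, a manganese exporter gene, had 9 members, against 0 CD34 SP, 1 CD138 and 2 Myofibroblast peaks, and 0.122 CPM in those cells with 0.0490 CPM in the others. Gm26897 had 12 members, against 8 CD34 SP, 4 CD138 and 7 Myofibroblast peaks, and no UMI in any kept cell, which allows up to 0.451 CPM in the Cd34 and Cd81 high cells. Col5a1 had 13 members but 17 peaks of CD34 SP, against 0 of CD138 and 0 of Myofibroblast. Among the genes with 5 or more members the highest level belonged to Dcn, the gene of the collagen-binding proteoglycan decorin, with 15134 CPM in the Cd34 and Cd81 high cells and 7517 CPM in the other stromal clusters. Its 7 members stood against 4 CD34 SP, 4 CD138 and 0 Myofibroblast peaks.

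**Figure D2:**
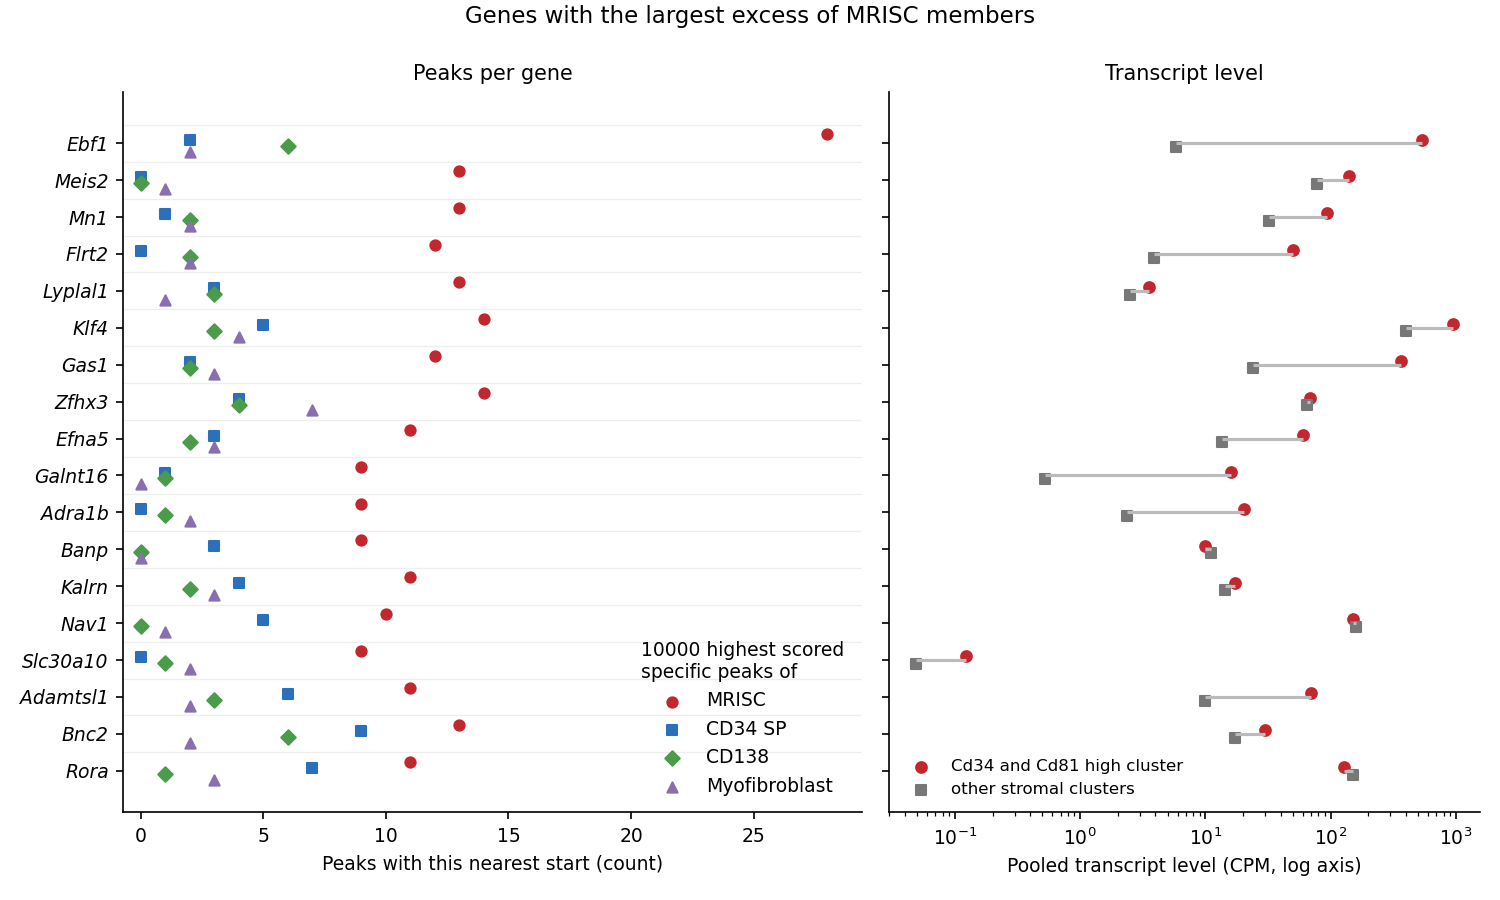
Of the 20 protein-coding genes with the largest excess of MRISC members over the mean of the other 3 lists, the 18 reported here. Left, number of peaks with that nearest start in each list of 10000; right, pooled transcript level (CPM, log axis) in the Cd34 and Cd81 high cluster (circles) and in the other stromal clusters (squares). Ebf1 stands apart with 28 members and with 536 against 5.82 CPM, while Nav1, Banp and Rora have nearly equal levels in both.

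Genes of niche signals were counted from lists. These lists, like the members, were chosen with earlier results of these data known, and over all protein-coding genes 25.7% had a member and the density was 3.80 members per Mb of territory. The 9 BMP antagonist genes had 19 members, against 9 CD34 SP, 3 CD138 and 5 Myofibroblast peaks, and 7 of the 9 had at least 1. Bmper carried 8, and Grem1, Fst and Fstl1 2 each. The Grem1 members lay in introns 105 to 145 kb from its start, the higher scored one inside Fmn1. The 4 R-spondin genes had 7, against 1 CD34 SP, 2 CD138 and 1 Myofibroblast peaks, of which Rspo3 carried 4 and Rspo2 3. Rspo1 and Rspo4 had none. The 13 Wnt ligand genes had 23, against 19 CD34 SP, 8 CD138 and 11 Myofibroblast peaks, with 9 nearest to Wnt5a. Of these 9, 8 lay in introns and none within 10 kb of the Wnt5a gene body, and the highest scored was inside Erc2. The 7 BMP ligand genes had 12, against 25 CD34 SP, 10 CD138 and 8 Myofibroblast peaks. Of these 12, Gdf10, which encodes a BMP3-related ligand, had 5, all upstream, against 0 in each of the other lists. The 9 genes of Wnt antagonists had 8, against 14 CD34 SP, 5 CD138 and 10 Myofibroblast peaks.

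The other lists varied as much. The 37 mesenchymal transcription factor genes had 151 members, against 120 CD34 SP, 92 CD138 and 73 Myofibroblast peaks. Of the 151, Ebf1 alone held 28, against 2 CD34 SP, 6 CD138 and 2 Myofibroblast peaks, so much of the difference from CD34 SP lay at this gene. Twist1, a mesenchymal factor gene, had 4 members and 0 peaks of any other list. The 23 matrix genes had 51, against 92 CD34 SP, 17 CD138 and 23 Myofibroblast peaks. The 13 guidance genes had 52, against 44 CD34 SP, 31 CD138 and 36 Myofibroblast peaks. The 19 inflammation-associated genes had 12, against 36 CD34 SP, 13 CD138 and 7 Myofibroblast peaks, and 3 of the 12 lay at Ackr4, a scavenging chemokine receptor gene with 0 peaks in the other lists. The 10 genes of the MAP3K2 to ERK5 kinase route had 22, against 19 CD34 SP, 20 CD138 and 21 Myofibroblast peaks. Of the 22, Klf4 held 14 and Map3k2 itself 1. The 9 AP-1 subunit genes had 4, against 8 CD34 SP, 8 CD138 and 4 Myofibroblast peaks. The 13 neuronal adhesion genes, long genes in large territories, had 43, against 18 CD34 SP, 55 CD138 and 77 Myofibroblast peaks. The 8 sort marker genes had 9, against 18 CD34 SP, 15 CD138 and 4 Myofibroblast peaks. Of the 9, 5 lay at Pecam1 and 1 at Ptprc, genes of markers that the sort excluded, 2 at Cd81 and 1 at Thy1, and none at Cd34 or Pdpn, while Pdpn had 8 peaks of CD34 SP. Per Mb of territory, the density of members was 13.5 for Wnt ligands, 11.1 for matrix genes, 9.51 for BMP antagonists, 8.14 for R-spondins and 8.09 for mesenchymal transcription factors. It lay between 4.43 for AP-1 subunits and 6.29 for sort markers in the other lists, except the neuronal adhesion genes at 1.92.

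Words that transcription factors are known to bind were searched on both strands of the central 200 bp of each member. A total of 30 words was searched, and a word is a description, not a binding site. Of the words, 2 rare palindromes had the largest ratios of the members' share to the mean share of the other 3 lists, 2.36 for NR3C and 1.92 for EBF. The EBF word was in 111 members (1.11%, interval 0.914 to 1.34), against 0.490% in the CD34 SP list, 0.50% in the CD138 list and 0.740% in the Myofibroblast list, and in 0.327% of 639837 tiles of the genome. The interval of the Myofibroblast share, 0.581 to 0.928, reached into that of the members. The NR3C word was in 110 members (1.10%, interval 0.905 to 1.32), against 0.350% in the CD34 SP list, 0.640% in the CD138 list and 0.410% in the Myofibroblast list, and in 0.326% of tiles. Both words were thus in few members. Only 2 members had both, the 111 EBF members were nearest to 110 genes, and none of the 28 members at Ebf1 had the EBF word. The Fam98a, Cdkn2b and Mn1 sequences printed above are examples.

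Among common words, the AP-1 word was in 14.5% of members, against 19.9% for CD34 SP, 8.86% for CD138, 7.77% for Myofibroblast and 5.97% of tiles. Of the 28 members at Ebf1, 7 had it. The NFI word TTGGCA was in 14.2% of members, against 13.3% in the CD34 SP list, 11.6% in the CD138 list and 11% in the Myofibroblast list. Lower shares in members than in each other list were found for the MEF2 word (CTATTT and TAG 1 base apart), in 13 members (0.130%), against 0.350% in the CD34 SP list, 0.470% in the CD138 list and 0.420% in the Myofibroblast list, and for the RUNX word TGTGGT, at 15.5% against 17.3%, 21.5% and 16.1% in the same order, the last with an overlapping interval. The words searched as SRF, HOX13, TCF/LEF and DR1 (given below) also had lower shares in members than in each other list. Their intervals overlapped some of those lists. For MEF2 the ratio to the mean of the other 3 lists was 0.315. MEF2 factors are targets of the ERK5 kinase, and a link between that kinase and this share was not tested. The word CAGGTG, bound by basic helix-loop-helix and ZEB factors, was in 11% of members and 10.9% of CD34 SP peaks, against 18.7% for CD138 and 14.4% for Myofibroblast. The GC content of the windows was 48.3% in members, against 47.3% in the CD34 SP list, 47.5% in the CD138 list and 47.1% in the Myofibroblast list, and 41.8% in tiles. The contrast with tiles therefore mixes words with base composition.

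**Figure D3:**
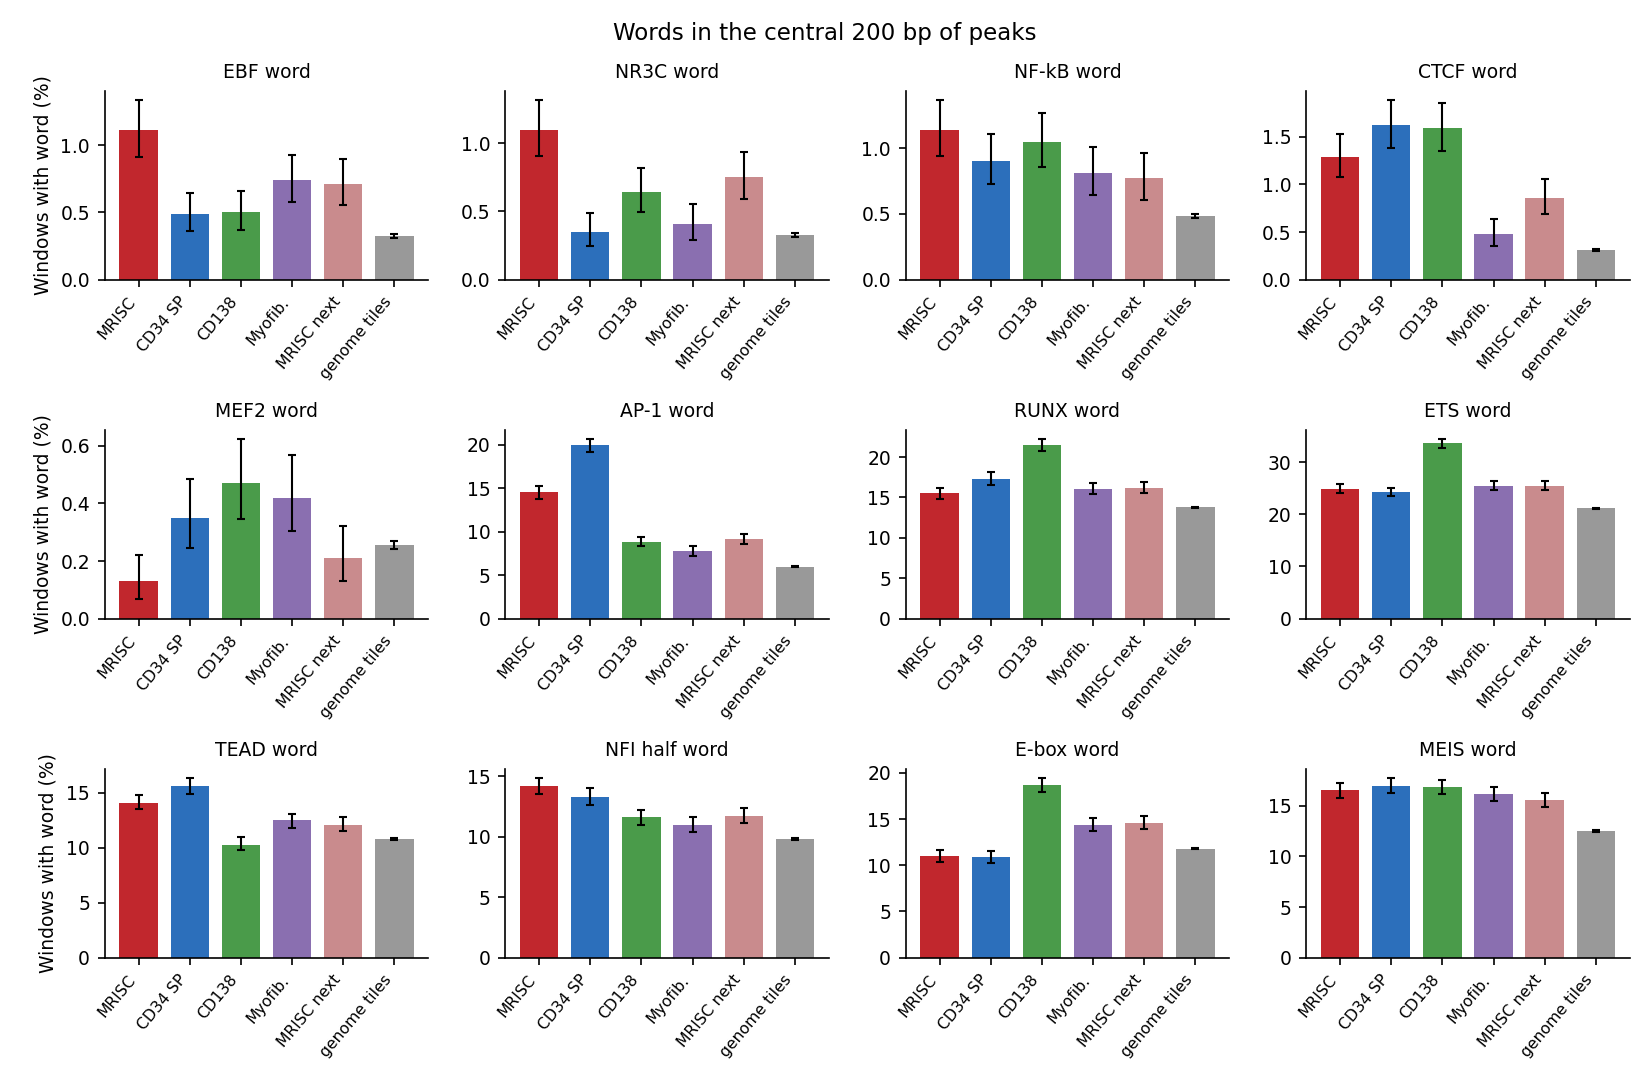
Share of central 200 bp windows (%) with each of 12 words in the 10000 members of MRISC, the lists of CD34 SP, CD138 and Myofibroblast, the next 10000 MRISC specific peaks and tiles of the genome. Bars start at 0, scales differ between panels, and lines are 95% exact binomial intervals for counting error. The intervals of the EBF and NR3C words in MRISC lie above those of CD34 SP, CD138 and tiles, and the MEF2 bar of MRISC is the lowest of its panel.

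These words changed with the score among the members. Split by score into 5 groups of 2000, the AP-1 word was in 22.4, 15.3, 13.9, 10.9 and 9.85% of members, from the highest scored group down. The EBF word was in 1.70, 1.40, 1.15, 0.750 and 0.550%, and the NR3C word in 1.90, 1.30, 0.700, 0.800 and 0.800%. In the lowest scored group the EBF share was close to that of the CD34 SP and CD138 lists. The RUNX word ran the other way, at 12.6% in the highest scored group and 17.3% in the lowest. Median width was 424 bp in the highest scored group and 242 bp in the lowest, and its part in these shares was not tested. Words also varied with place. The AP-1 word was in 16.2% of intergenic and 14.2% of intronic members, and in 8.28% of promoter members.

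**Figure D4:**
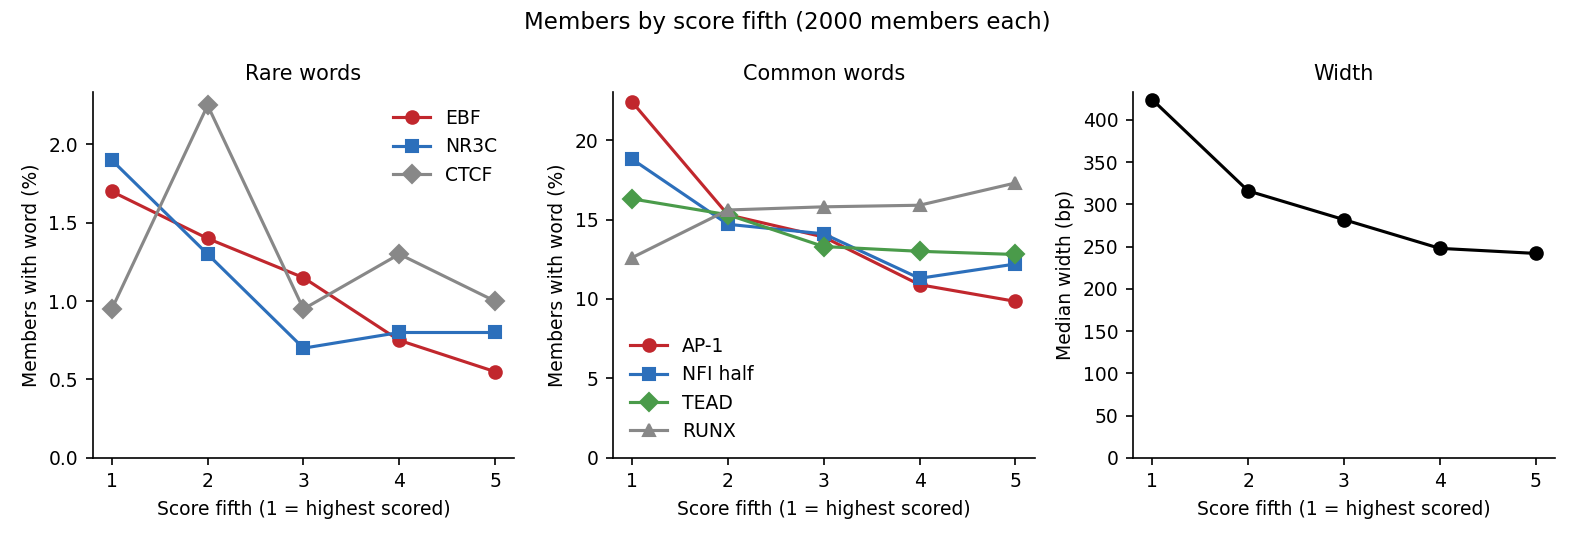
Members in 5 score groups of 2000, group 1 with the highest scores: share (%) with the EBF, NR3C and CTCF words (left), share (%) with the AP-1, NFI, TEAD and RUNX words (middle) and median width in bp (right). The AP-1, NFI, EBF and NR3C lines are highest in group 1, where the RUNX line is lowest, and width is largest in group 1.

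The single-cell library was used to give each nearest gene a transcript level. It held 11376 kept cells with a median of 6052 UMIs (unique molecules) and 2288 genes per cell, and 72920197 UMIs in all. Levels are UMIs pooled over a group of cells, in CPM. Clustering gave 11 clusters, 7 of them stromal. A single stromal cluster of 1353 cells had both Cd34 (645 CPM) and Cd81 (783 CPM) above their mean over all kept cells. At least 2-fold higher in it were 7 of 9 markers of CD34+CD81+ fibroblasts. The 9 include Cd34 and Cd81, which chose the cluster, and Cd81 was among the 7. Cd34 was not, at 645 CPM against 407 CPM in the other stromal clusters and 686 CPM in the highest of them. Sfrp1 ran the other way, at 584 against 813 CPM. The cluster is called CD34+CD81+ fibroblast-like, a name that rests in part on the genes that chose it. Its cells are the Cd34 and Cd81 high cells named above, and whether they are the sorted MRISC was not tested. The other stromal clusters held 9592 cells, among them a smooth-muscle-like cluster (7 of 7 markers). The summed level of 5 mesothelium markers was 93.0 CPM in the CD34+CD81+ fibroblast-like cells and 8.84 CPM in the other stromal clusters, with none at 0. Of that sum Wt1 alone held 84.0 CPM in the CD34+CD81+ fibroblast-like cells and 0.686 CPM in the others, and it was the 1 mesothelium marker that was at least 2-fold higher at 20 CPM or more. The sum of 5 glia and neuron markers was 18.2 and 2.09 CPM, with 1 of 5 at 0 in the CD34+CD81+ fibroblast-like cells and S100b the highest, at 10.8 and 0.523 CPM. Their part in the results below was not tested. Summed immune markers had 9.30 CPM there and 16.9 CPM in the others, endothelial markers 2.81 and 5.07 CPM, and epithelial markers 6.24 and 7.24 CPM. Droplets of at most 100 UMIs held 59.0 CPM of Ebf1, above the 5.82 CPM of the other stromal clusters, so low levels of such genes outside the cluster cannot be told apart from free RNA.

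Genes near members were detected more often than genes at large. Of 5553 genes with a member, 34% had at least 20 CPM over all kept cells, against 26.8% of all 21614 protein-coding genes, and the median level was 8.38 CPM against 2.66 CPM. No UMI at all was found for 614 of the 5553. The 462 genes with a member at the promoter did not share this, with 24.7% at 20 CPM and a median of 2.48 CPM. The share at 20 CPM was 43.1% for genes with 5 or more members, against 72.9% for genes with 5 or more peaks in the CD34 SP list, 37.9% in the CD138 list and 29.2% in the Myofibroblast list.

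The level in the CD34+CD81+ fibroblast-like cells relative to the other stromal clusters was then compared over 6070 genes with at least 20 CPM in either group. Of all of them 4.56% were at least 2-fold higher in the CD34+CD81+ fibroblast-like cells and 5.73% at least 2-fold lower. Of the 159 such genes with 5 or more members, 45 (28.3%, interval 21.5 to 36.0) were at least 2-fold higher and 6 (3.77%) at least 2-fold lower. Of these 45, 22 had under 20 CPM in the other stromal clusters and so passed the limit only where they were high, as did 134 of the 277 higher genes overall. With the limit set on the level over all kept cells, 26 of 131 genes (19.8%) were higher, beside 2.94% of all genes. The 1 library gives no p-value, and the ratios are descriptions. For genes with 5 or more peaks of CD34 SP the share higher was 5.04% and the share lower 26.9%. For CD138 they were 7.21% and 22.5%, and for Myofibroblast 8.43% and 25.3%. The median ratio was 1.23 for genes with 5 or more members and 0.887 over all genes, so the typical gene stood slightly below 1.

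The share higher grew with the number of members. It was 2.23% for genes with none, 4.71% with 1, 12.2% with 2 to 4, 25.9% with 5 to 9 and 45% (9 of 20) with 10 or more. Genes with 1 member were therefore close to the share of all genes. In genes with a member at the promoter, 25 of 131 (19.1%) were at least 2-fold higher. Territory also grew with the number of members. In each of 5 equal groups of genes by territory the share higher was larger with a member than without. It was 4.49% against 1.74% in the smallest territories and 11.5% against 2.50% in the largest. The share lower was also larger with a member in the smallest territories (5.62% against 1.56%) and the next group (4.08% against 3.01%). It was smaller with a member in the other groups. In the smallest territories 4 of 89 genes with a member were higher and 5 lower, near the shares of all genes. By the stromal cluster of highest level, 68 of the 159 genes (42.8%) peaked in the CD34+CD81+ fibroblast-like cluster, against 11.4% of all genes, 11.8% in the CD34 SP list, 19.8% in the CD138 list and 19.3% in the Myofibroblast list. The smooth-muscle-like cluster held the highest level for 24 of the 159. Genes that reached 20 CPM in the CD34+CD81+ fibroblast-like cluster alone were favoured by the limit to peak there. These shares were not taken with the limit over all kept cells, and are descriptions. With 20000 members in place of 10000, the share at least 2-fold higher was 18.1% (80 of 443 genes), against 6.47% in the CD34 SP list, 9.97% in the CD138 list and 9.57% in the Myofibroblast list. With 5000 it was 42.4% (25 of 59), against 3.39% in the CD34 SP list, 7.41% in the CD138 list and 16.7% in the Myofibroblast list, the last being 2 of 12 genes. A limit of 1.5-fold gave 38.4%, beside 7.03% of all genes, and one of 3-fold 17%, beside 2.75%. Finer clusters at Leiden resolution 1.0 gave 19.3% (29 of 150), beside 3.19%. The Cd34 and Cd81 high group then also took in a cluster of 706 cells with 191 CPM of Cd81. In that cluster no CD34+CD81+ fibroblast marker was at least 2-fold higher, so this group is not the same cells.

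**Figure D5:**
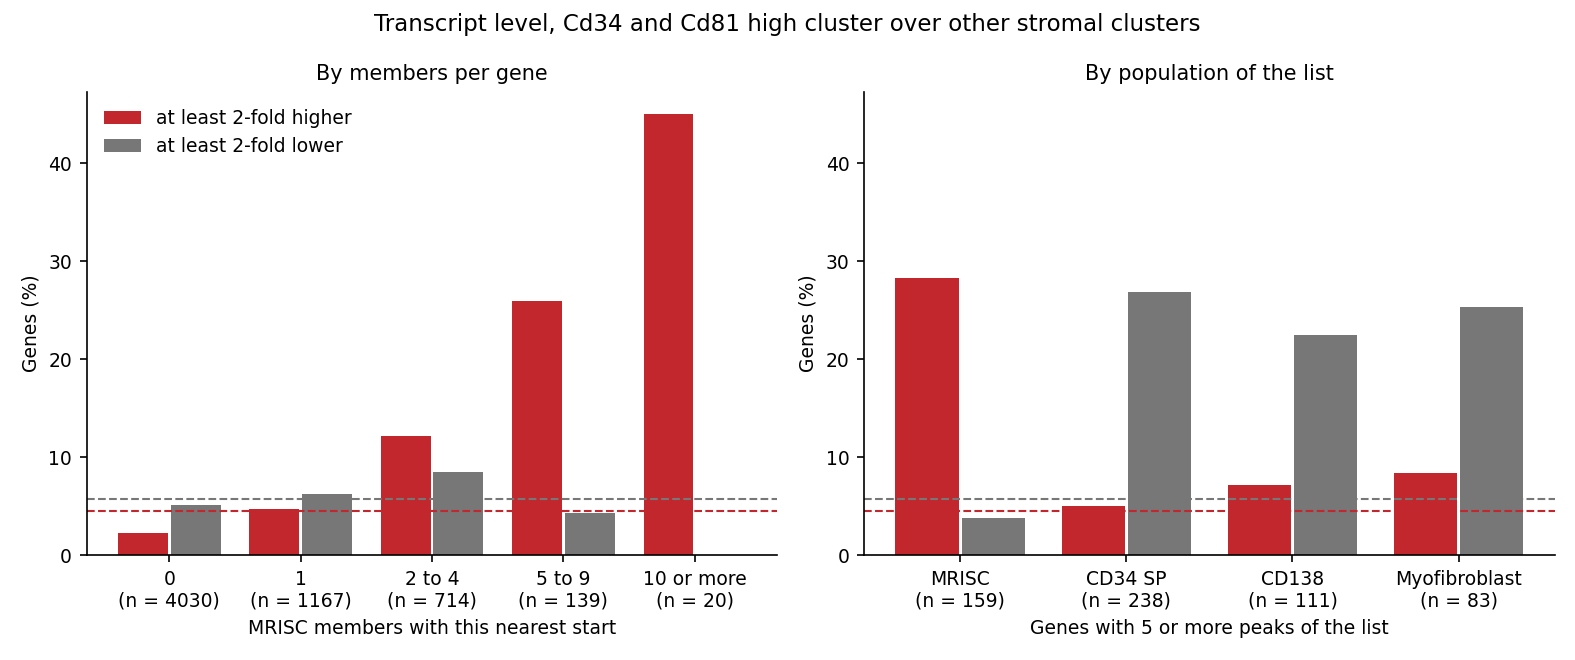
Share of genes (%) at least 2-fold higher (red) or lower (grey) in the Cd34 and Cd81 high cluster than in the other stromal clusters. Left, by number of MRISC members with that nearest start; right, genes with 5 or more peaks of each list; dashed lines are the shares over all 6070 genes, 4.56% higher and 5.73% lower. The red bars grow with members per gene, and among the 4 lists the red bar is above the grey bar for MRISC alone.

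The gene lists differed in the share of their genes that were higher. Over all 6070 genes 4.56% were at least 2-fold higher and 5.73% at least 2-fold lower, and each list count here and below stands beside these. The lists were chosen with earlier results of these data known. Genes at 20 CPM in the CD34+CD81+ fibroblast-like cells alone could only be higher, so these counts are descriptions. They are not counts of genes with members. Of 32 mesenchymal transcription factor genes with enough transcripts, 8 were at least 2-fold higher in the CD34+CD81+ fibroblast-like cells (among them Ebf1, Ebf2, Prrx1, Foxp2, Meis1, Twist1 and Zeb1) and 5 at least 2-fold lower (Foxf1, Foxf2, Tcf21, Nr2f1 and Runx2). Prrx1, a limb and mesenchyme homeobox gene with 3 members, had 66.9 CPM there and 2.48 CPM in the others. The lower ones had 3 members at Foxf1, 2 at Tcf21, 1 at Nr2f1 and none at Foxf2 and Runx2. Counts of the higher ones named overlapped these, with 1 at Foxp2, 3 at Prrx1, 4 each at Ebf2 and Twist1, 5 at Zeb1 and 6 at Meis1. Ebf1 stood apart with 28. Of 6 BMP antagonist genes, 4 were at least 2-fold higher (Fst, Bmper, Grem1 and Chrd) and none lower. Fst, the gene of the activin-binding protein follistatin, had 67.8 CPM there and 3.09 CPM in the others. Chrd had no member. Both R-spondin genes with enough transcripts were higher, Rspo3 at 85.8 CPM against 14.9 CPM and Rspo1 at 54.1 CPM against 18.9 CPM, although Rspo1 had no member.

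Among ligands the list counts ran the other way. Of 6 BMP ligand genes 1 was at least 2-fold higher and 4 lower. Gdf10 was the higher one, with 86.6 CPM in the CD34+CD81+ fibroblast-like cells and 1.18 CPM in the other stromal clusters, and Bmp4, with 2 members, had 314 and 954 CPM. Of 4 Wnt ligand genes none was at least 2-fold higher and 3 were lower. Wnt5a, with 9 members, had 39.3 CPM there and 26.9 CPM in the others, and its highest level, 210 CPM, was in the crypt-top-like cluster. Of 5 genes of Wnt antagonists, 1 was higher and 2 lower, and Sfrp4, with 1 member, had 309 CPM there and 5.03 CPM in the others. Of 8 guidance genes, 2 were higher and 4 lower, and Slit3, a secreted cue with 8 members, all in introns, had 200 and 50.5 CPM.

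Of 23 matrix genes, 5 were at least 2-fold higher (Col14a1, Col6a3, Mfap5, Lum and Dcn) and 2 lower (Col15a1 and Postn). Of 17 inflammation-associated genes 8 were higher and 5 lower, beside 4.56% and 5.73% of all genes. Of these 8, Ccl7, Cxcl1 and Has1 had no member. Ackr4 had 63.1 CPM in the CD34+CD81+ fibroblast-like cells and 0.882 CPM in the others, and C3, a complement gene with 1 member, 3522 and 433 CPM. Of 9 genes of the MAP3K2 to ERK5 route 2 were higher, Klf4 and Klf2, and none lower. Klf2, a factor gene known as a target of ERK5, had 2329 CPM there and 710 CPM in the others, with no member. Map3k2 itself had 36.3 CPM there and 37.1 CPM in the others. Of 7 AP-1 subunit genes, 4 were higher (Atf3, Fosb, Fos and Junb) and none lower, with 1 member among these 4 genes. Of 5 sort marker genes, Cd81 was higher, which chose the cluster, and Sdc1, the gene of CD138, lower, at 24.1 CPM against 117 CPM. Of the neuronal adhesion genes Lsamp alone had enough transcripts. It passed the limit only in the CD34+CD81+ fibroblast-like cells, with 22 CPM there and 6.00 CPM in the others, so its direction was set by the limit, and its 8 members stood against 0 CD34 SP, 6 CD138 and 8 Myofibroblast peaks.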

How the data were processed

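Peak lists of 4 sorted stromal populations (2 ATAC-seq libraries each, 1 list per population) and 1 single-cell library were used. The deposited peak lists hold 1 score per peak. Per the submitters' processing notes the authors used bcl2fastq, bedtools and build mm10; the sources used here give neither depth nor caller, so the score only ranked peaks within a list. The deposited matrices hold whole-number UMI counts, for which the notes name bcl2fastq, Cell Ranger and Seurat; the file header gives software version 3.0.0 and the labels 10x 3' chemistry.

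The 10000 highest scored MRISC specific peaks were taken (14 of 82527 lay on other chromosomes), with the same rule for each other population. Members, gene lists and words were chosen with earlier results of these data known. Genes came from GENCODE vM21. A member belonged to the protein-coding gene with the nearest start to its centre, and to a promoter within 1 kb. Clusters joined neighbours across gaps of about 13 kb or less. Words were searched in the central 200 bp on both strands: AP-1 TGANTCA, EBF TCCC and GGGA 2 bases apart, NR3C GNACA and TGTNC 3 bases apart, NFI TTGGCA, RUNX TGTGGT, MEF2 CTATTT and TAG 1 base apart, TEAD GGAATG, ETS AGGAAG, MEIS TGACAG, E-box CAGGTG, the CTCF word, and others to 30 in all; overlapping words were counted separately and tiles are 1 in 20 of the 200 bp tiles of the genome. Named genes were the 25 with the most members, the 20 with the largest excess over the mean of the other lists, those nearest to the 10 highest scored members, those of the 10 largest clusters, the 20 of highest level with 5 or more members, and the gene lists; the text gives the clearest of them, and 3 genes are not reported here. Printed sequences were the highest scored members of at most 300 bp near these genes with a word named in the text, plus 4 windows chosen after the values were seen; members in exons were not printed.

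Of 11484 barcodes, 11376 passed 500 detected genes with no more than 10% of UMIs mitochondrial, and were clustered with scanpy 1.11.5 (2000 variable genes, 30 components, 15 neighbours, Leiden 0.10.2 at resolution 0.5). Scrublet marked 0 cells, so it did not work here and doublets were not removed. Clusters rest on the same transcripts, so ratios between them are descriptions. Of 21660 genes, 21614 were matched by identifier. Python 3.11.15, pandas 2.3.3, scipy 1.17.1 and pyfaidx 0.9.0.4 were used, and the scripts were tested on simulated data. Alternatives covered the length of the lists, promoter width, joining distance, word window, detection level, fold and cluster resolution.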

Additional observations from a re-analysis of the deposited data

How the results depend on the processing

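Of 61 alternatives over 14 results, 21 moved the value by no more than its counting interval or, for counts, 1.5 times, and 40 moved it further. The order of MRISC and CD138 turned with 5000 peaks for the share in clusters (17.0% and 18%), for the median distance (30964 and 24309.5 bp) and for promoters (4.90% and 5.54%). No paired analysis was possible because each population has 1 list for its 2 libraries, with no column per library, and there is 1 single-cell library. Many moves follow from the construction of the alternative, such as a wider distance or a shorter list. The median distance was 30964 bp with 5000 members and 10104 bp with the starts of all annotated genes. Promoters of 2 kb held 9.30% of members. The share in clusters was 12.8% joined at 5 kb, 37.0% at 25 kb, 17% with 5000 members and 35.8% with 20000. Shared MRISC peaks lay within 500 bp of 14.1% and within 5 kb of 52.0% of members. Ebf1 had 14 members of 5000, and 12 with the starts of all annotated genes. Genes with 5 or more members numbered 144 by gene bodies with 10 kb and 94 with all annotated starts.

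For words, the central 100 bp, the central 400 bp, 5000 members and 20000 members gave EBF shares of 0.530, 1.93, 1.44 and 0.910%, and AP-1 shares of 9.01, 20.7, 18 and 11.8%. For NR3C the first 3 of these gave 0.590, 1.71 and 1.38%. Relative to the mean of the other 3 lists (1.92 for EBF, 2.36 for NR3C and 1.19 for AP-1), the ratio of EBF was 2.51 with 5000 members, 1.58 with 20000 and 2.69 in windows of 40 to 50% GC, a choice made after seeing the data. That of NR3C was 2.85 in the central 100 bp and 3.57 with 5000 members, and that of AP-1 1.26 in the central 100 bp, 1.32 with 5000 members and 1.11 with 20000. Genes with a member were detected at 5 CPM in 56.0% and at 50 CPM in 17.8%. The share of genes with 5 or more members that were higher was 38.4% at 1.5-fold (7.03% of all genes), 17% at 3-fold (2.75%), 19.3% at resolution 1.0 (3.19%), 19.8% with 20 CPM over all kept cells (2.94%), 42.4% with 5000 members and 18.1% with 20000. At resolution 1.0 the cell group also took in a cluster in which no CD34+CD81+ fibroblast marker was at least 2-fold higher. Lists of 5000 and 20000 for Ebf1, the words and the transcript shares, and the limit over all kept cells, were added after seeing the data. The cause of these moves was not tested otherwise.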

Other observations

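Peaks of the X chromosome were few in every list of these male colons. Among MRISC specific peaks 0.796% lay on X, and among all MRISC peaks 1.36%. The share among members, 1.52%, was above the 0.770% of the next 10000 MRISC specific peaks. In CD34 SP 3.00% of the list lay on X.

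Promoter members had few of the rare words, with the EBF word in 2 and the NR3C word in 1 of 483, against 52 and 54 of 4260 intergenic members. The DR1 word (AGGTCA repeated after 1 base) was in 0 of 10000 members (exact binomial interval up to 0.0369%), against 0.110% of CD34 SP peaks (0.0549 to 0.197%). It was in 0.0200% of CD138 peaks, 0.0200% of Myofibroblast peaks and 0.0347% of tiles, which lie within the interval of the members. The CD34 SP list was thus the one that differed. Acot12 was nearest to 2 members with the EBF word and Tenm4 to 2 with the NR3C word; every other gene with such a member had 1.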
